A study of Homo sapiens with 11 samples.

Results

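The chromosomal surroundings of SGK1 and SCNN1A, a pair of glucocorticoid-induced genes of epithelial sodium transport, were examined for binding of the glucocorticoid receptor (GR) and for the small protein modifiers SUMO-2 and SUMO-3 (SUMO-2/3, 1 antibody). Every listed site overlapping chr6:134390000-134740000 (SGK1) or chr12:6356000-6587000 (SCNN1A) on the hg19 genome build was taken. These windows span 350 kb and 231 kb and reach about 100 kb beyond each gene. They held 22 of the 51024 sites in the 5 peak lists of the study, 13 around SGK1 and 9 around SCNN1A. Sites of different lists that overlapped by at least 1 bp were joined, which gave 6 loci in the SGK1 window and 5 in the SCNN1A window.

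Chromatin immunoprecipitation followed by sequencing (ChIP-seq) had been done in isogenic HEK293 lines, derived from human embryonic kidney cells, made with the Flp-In site-specific integration system. One line expressed wild-type GR (wt), another a SUMOylation-defective GR (3KR), and the control line (FRT) had no GR transgene. All cells spent 72 h in steroid-depleted medium and received 100 nM dexamethasone, a synthetic glucocorticoid, for 1 h, so no group is untreated. GR and SUMO-2/3 libraries of the wt and 3KR lines were in duplicate, and the control line had 1 GR library. Each line is a single cell population with a stably integrated, exogenous receptor, and the duplicates do not measure the spread between independently made lines.

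GR is a ligand-activated transcription factor that binds DNA mainly at inverted pairs of a hexamer, AGAACA. SUMO-2/3 are attached to lysine residues of target proteins, among them GR and other chromatin-bound factors. SGK1 encodes a serine/threonine kinase that phosphorylates the ubiquitin ligase NEDD4L and thereby keeps the epithelial sodium channel at the cell surface. SCNN1A encodes the alpha subunit of that channel. Both genes are textbook targets of corticosteroids in the distal nephron and other sodium-absorbing epithelia.

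Both genes lie on the minus strand, so the upper end in coordinates is the end where the longest transcript begins. Per the window rule, SGK1 covers about 134490000 to 134640000 and SCNN1A 6456000 to 6487000. Distances to gene ends below use these ends and carry their rounding, since no hg19 gene annotation was used here. In the RefSeq gene order the protein-coding neighbours of SGK1 are SLC2A12 and ALDH8A1, and those of SCNN1A are TNFRSF1A and LTBR.

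SGK1 has 3 transcription starts in the RefSeq promoter table (GRCh38.p14), and no SCNN1A entry was matched. The starts at the inner and lower positions are shown because 2 of the 3 GR loci inside SGK1 lay towards the lower end of the gene. Each sequence covers 250 bases before to 50 after the start, 5′ to 3′ on the minus strand, with the GR hexamer AGAACA in capitals.
SGK1 chr6:134177812-134178111 (GRCh38.p14, minus strand): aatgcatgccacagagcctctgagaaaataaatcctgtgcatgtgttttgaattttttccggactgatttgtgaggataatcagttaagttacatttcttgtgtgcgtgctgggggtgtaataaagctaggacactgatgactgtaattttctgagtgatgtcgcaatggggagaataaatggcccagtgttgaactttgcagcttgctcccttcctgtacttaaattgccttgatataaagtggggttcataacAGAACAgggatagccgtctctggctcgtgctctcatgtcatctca
SGK1 chr6:134174817-134175116 (GRCh38.p14, minus strand): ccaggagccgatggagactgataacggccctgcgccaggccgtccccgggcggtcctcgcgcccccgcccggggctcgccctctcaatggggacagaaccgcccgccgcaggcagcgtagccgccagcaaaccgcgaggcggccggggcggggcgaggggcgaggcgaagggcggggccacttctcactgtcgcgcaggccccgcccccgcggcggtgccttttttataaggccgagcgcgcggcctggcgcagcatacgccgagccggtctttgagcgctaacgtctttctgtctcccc
Both strands were searched for the palindromic GR response element, for a relaxed form of it, for the hexamer AGAACA that makes up each arm of the full element, and for the AP-1 motif TGANTCA. The promoter at 134177812 held 1 hexamer, starting at base 256 of the sequence, and none of the other motifs. The promoter at 134174817 and the third one held 0 matches to any of them. Of 35116 promoters of the same 300-base length, 14.8% held the hexamer, 0.390% the relaxed element, 0.00285% (1 promoter) the full element and 7.71% the AP-1 motif. The GC content was 43.0% at 134177812 and 73.3% at 134174817. These positions are on another build than the peak lists and were not placed relative to the sites below. No genome sequence of the sites themselves was used here.

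GR sites were more closely spaced in both windows than over the lists as a whole. The SGK1 window held 5 wt and 5 3KR GR sites, 14.3 per Mb in each line, against 3.88 per Mb over the wt list and 6.48 per Mb over the 3KR list. The SCNN1A window held 2 wt and 5 3KR GR sites, or 8.66 and 21.6 per Mb. Over the whole of chromosome 6 the GR densities were 3.30 (wt) and 7.35 per Mb (3KR). Over chromosome 12 they were 3.42 and 6.73 per Mb. SUMO-2/3 had 1 wt and 2 3KR sites around SGK1, 2.86 and 5.71 per Mb, and 1 site in each line around SCNN1A, 4.33 per Mb. Over the SUMO-2/3 lists the densities were 4.14 per Mb in the wt and 2.68 per Mb in the 3KR line. The 3KR SUMO-2/3 density was thus above that of its list in both windows. The wt density, from 1 site per window, was below that of its list around SGK1 and near it around SCNN1A. The control line had 0 GR sites in either window, and its whole list held only 0.39 sites per Mb. Each duplicate group is represented by 1 set of positions common to its libraries, so these numbers have no replicate error and no test.

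**Figure D1:**
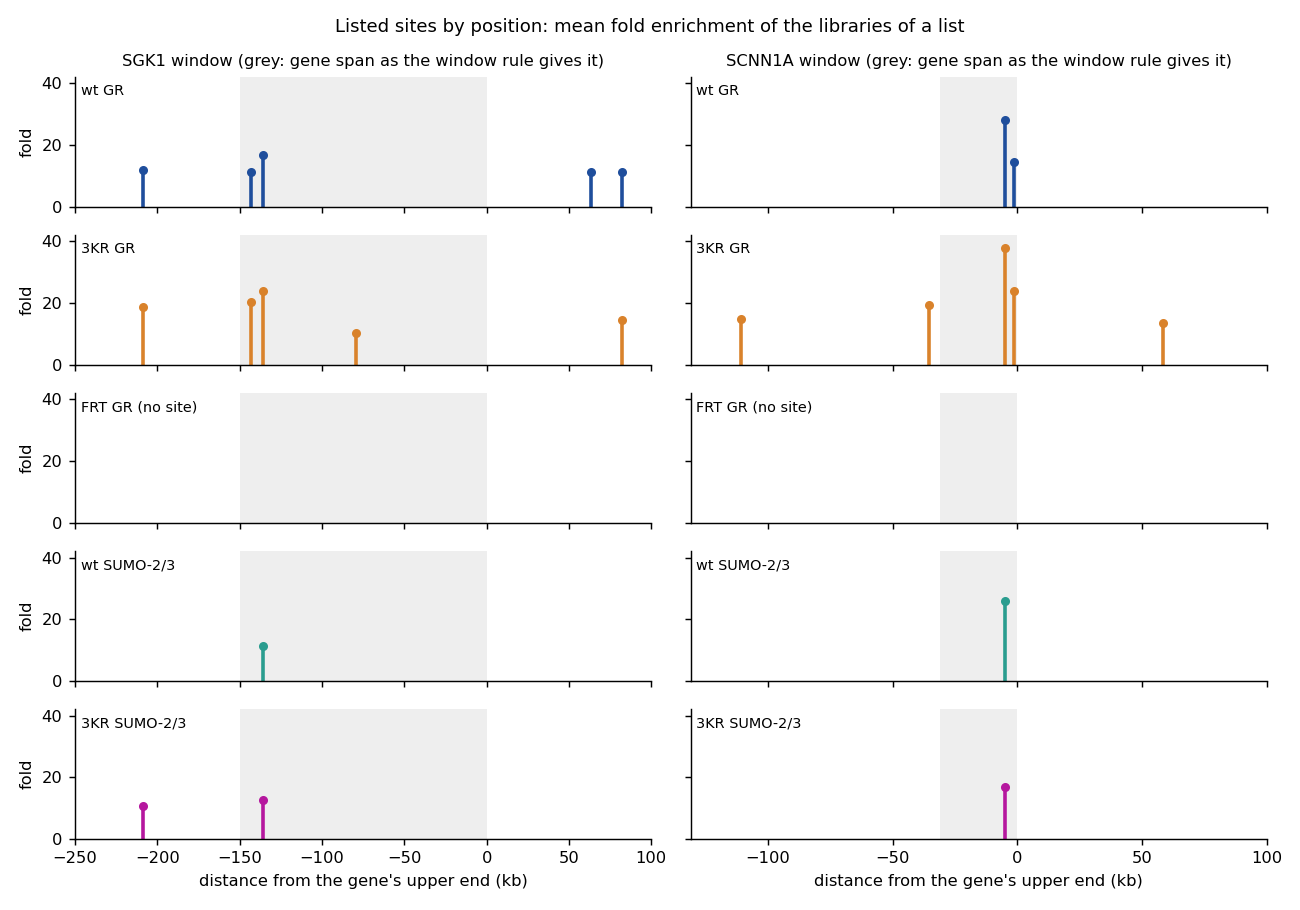
Position of every listed site in kb from the upper end of SGK1 (left) and SCNN1A (right), 1 row per list, with the mean fold enrichment of the list's libraries as height and the gene span in grey. In both lines 2 GR sites lie near the lower end of SGK1 and 2 near the upper end of SCNN1A, the other GR sites are spread over the windows, SUMO-2/3 sites lie only under GR sites, and the control-line rows are empty.

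The strongest GR site of the SGK1 window lay inside the gene, 14.2 kb from its lower end, and carried SUMO-2/3 in both lines. Its wt site was chr6:134503499-134504977. GR tags, the reads counted in each library's own peak, were 217 and 397 in wt libraries 1 and 2 and 417 and 357 in 3KR libraries 1 and 2. The authors' fold enrichment over background was 17.85 and 15.28 in the wt line and 27.09 and 20.41 in the 3KR line. Over the whole GR lists the median fold was 15.68 and 13.34 in the wt and 19.90 and 13.14 in the 3KR libraries. Fold was not centred between libraries here or below, and its differences between the lines were not tested. SUMO-2/3 tags there were 173 and 274 in the wt and 158 and 358 in the 3KR line. For both antibodies these tags, which are not normalized between libraries, overlapped between the lines. Ratios centred for each pair of libraries are given further below. SUMO-2/3 fold was 9.25 and 13.01 in the wt, and 10.35 and 14.92 in the 3KR line. By the mean fold rank of its libraries, counted as a percentile from the top of its list, the site stood at 37.1 in the wt and 23.7 in the 3KR GR list. In the SUMO-2/3 lists it stood at 76.9 and 54.8.

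The summits of GR and SUMO-2/3 at this site fell close together where they could be placed. A summit could be placed, to about 1 bp, only where a library's own peak had the listed start and end. It was then at 134503809 for wt GR library 1, at 134503780 for wt SUMO-2/3 library 2 and at 134503811 for 3KR SUMO-2/3 library 1. The SUMO-2/3 summits thus lay 29 and 2 bp from that of wt GR. For 3KR GR library 1 the listed length places the summit between 134503720 and 134503798, 11 to 89 bp away. In the other libraries the summit was bounded less closely. Its largest possible distance from that of wt GR library 1 was 453 bp for wt GR library 2 and 181 bp for 3KR GR library 2. For SUMO-2/3 it was 129 bp in wt library 1 and 269 bp in 3KR library 2.

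Nearer to the lower end of SGK1, at 7.15 kb, a separate GR site had no SUMO-2/3 in either line. It lay 5.63 kb below the strongest one, at chr6:134496691-134497546 in the wt line. GR tags were 59 and 347 in wt libraries 1 and 2 and 158 and 279 in the 3KR libraries. In wt library 1 the site was near the listing limit, as the weakest listed site there had 51 tags. Its false discovery rate (FDR) in that library was 6.14%, and its fold stood at percentile 92.3 from the top. By their ratio of tags, the wt duplicates disagreed more here than at the other wt GR sites of the windows. Library 2 had 5.88 times the tags of library 1, a ratio at or above that of 98.7% of the sites of that list. The median ratio over the list was 1.74. The own peak was 856 bp long in wt library 1 and 2701 bp in library 2, and 950 and 2269 bp in the 3KR libraries. Per kb of own peak the wt tags were 68.9 and 128, a 1.86-fold difference, and the 3KR tags 166 and 123. Where the summit could be placed, it was at 134497146 (wt library 1) and 134497153 (3KR library 1), 7 bp apart. Fold was 9.42 and 13.19 in the wt and 22.10 and 18.56 in the 3KR line.

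The lower flank of SGK1, 59.3 kb from the gene, held a GR site of both lines where SUMO-2/3 was listed in the 3KR line alone. The wt GR site was chr6:134430389-134431364 and the 3KR SUMO-2/3 site chr6:134429972-134431350. GR tags were 136 and 248 in the wt and 278 and 245 in the 3KR libraries, with fold values of 12.08 and 11.69 against 21.01 and 16.24. The 3KR SUMO-2/3 libraries had 117 and 202 tags at fold 10.40 and 11.12, at percentile 72.8 of their list. This pattern of SUMO-2/3 in the 3KR line alone was found at 4.96% of the 10006 wt GR sites shared with the 3KR line. How much SUMO-2/3 signal lay below the listing limits in the wt line was not analysed here.

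The remaining SGK1 loci were GR sites with no SUMO-2/3, and those of a single line ranked low. Within the gene, chr6:134559903-134560807 was a 3KR site only, with 116 and 102 tags and fold 11.76 and 8.63. It stood at percentile 93.8 of the 3KR list, and 87.8% of the 3KR-only GR sites ranked better. Beyond the upper end, chr6:134702827-134703814 was a wt site only, with 154 and 215 tags and fold 13.89 and 8.40, at percentile 81.0. Both had a fold just inside the listing limit in library 2, and the nearest 3KR GR site to the wt-only one was 18.0 kb away. Further out, 82.3 kb from the gene, chr6:134721732-134722764 was a GR site in both lines. Its tags were 129 and 222 in the wt and 201 and 174 in the 3KR libraries, and its fold was 12.03 and 10.33 against 17.58 and 11.59.

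**Figure D2:**
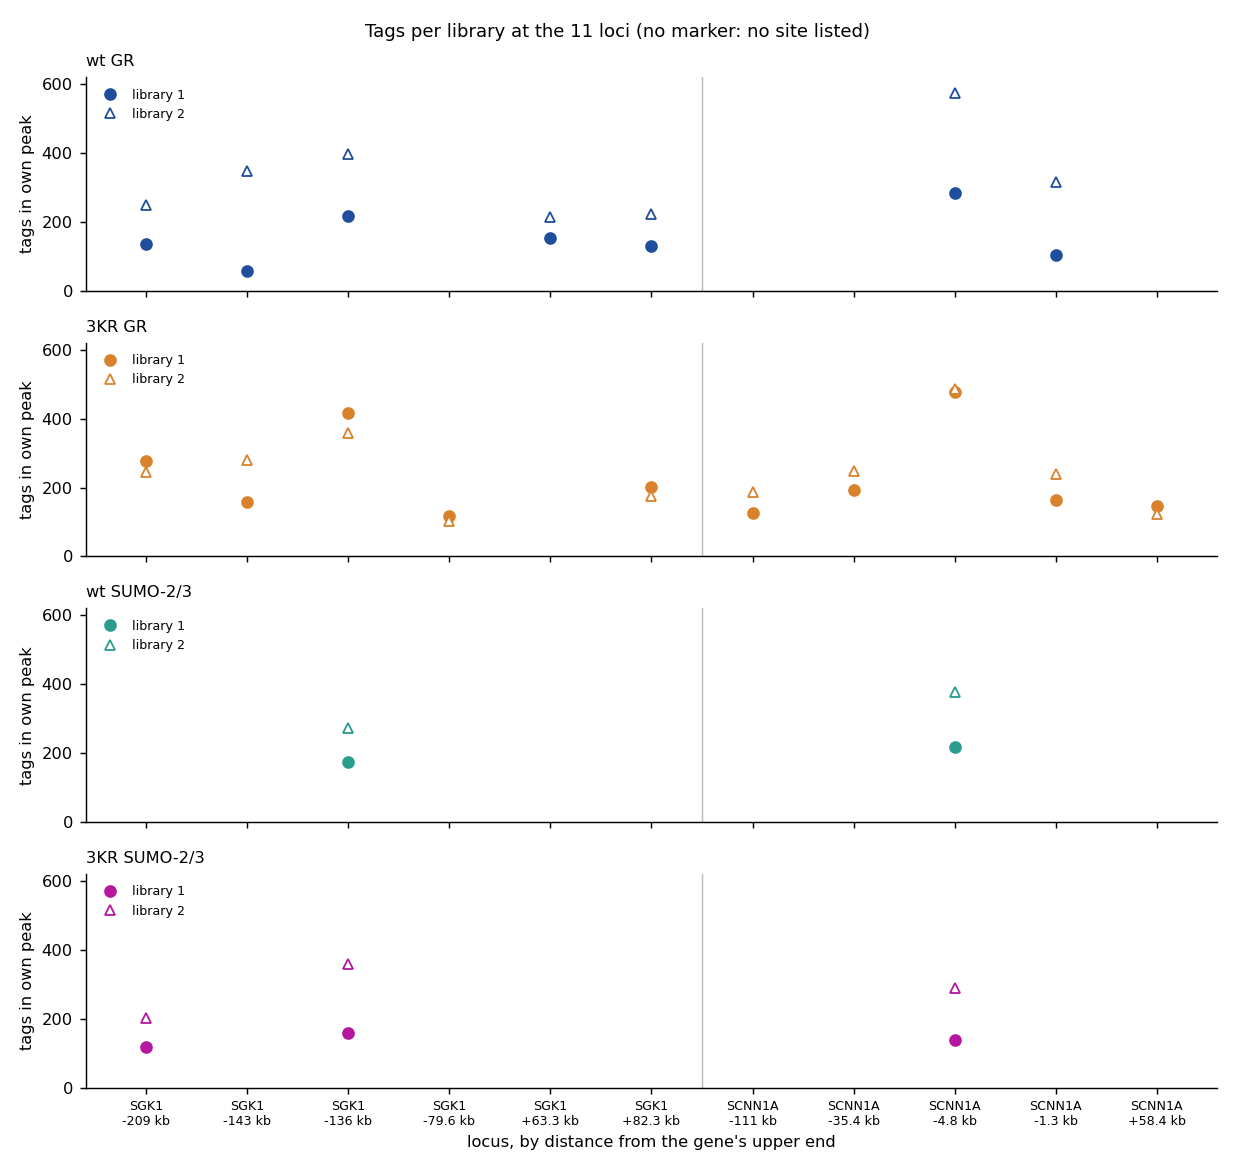
Tags in each library's own peak at the 11 loci, named by gene and distance from its upper end, with library 1 filled and library 2 open. The site 4.8 kb inside the upper end of SCNN1A has the most GR tags in all 4 libraries of the wt and 3KR lines. As a ratio of tags, the duplicates differ most, 59 against 347, at the wt GR site 143 kb from the upper end of SGK1.

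The strongest site of either window lay in SCNN1A, 4.8 kb inside its upper end, and was listed for both antibodies in both lines. The wt GR site was chr12:6481493-6482725. GR tags were 283 and 574 in the wt and 476 and 485 in the 3KR libraries. In these tags, not normalized between libraries, the 3KR libraries lay between those of the wt line. Fold was 32.32 and 23.98 in the wt and 45.16 and 30.60 in the 3KR line. SUMO-2/3 tags were 219 and 377 in the wt and 137 and 289 in the 3KR libraries, again overlapping before any centring. SUMO-2/3 fold was 22.99 and 28.85 in the wt and 14.07 and 19.59 in the 3KR line. The percentile from the top was 9.02 in the wt and 5.47 in the 3KR GR list, and 8.39 in the wt and 24.4 in the 3KR SUMO-2/3 list.

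At this SCNN1A site the library 1 summits of both antibodies again nearly coincided. The wt GR library 1 summit was at 6482340. The wt SUMO-2/3 library 1 summit lay between 6482291 and 6482327, 13 to 49 bp from it. The 3KR SUMO-2/3 library 1 summit lay between 6482308 and 6482335, 5 to 32 bp from it, and the 3KR GR library 1 summit between 6482273 and 6482342. In library 2 of each group the summit was bounded less closely. Its largest possible distance from the wt GR library 1 summit was 496 bp for wt GR and 475 bp for 3KR GR. For SUMO-2/3 it was 511 bp in the wt and 202 bp in the 3KR line.

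A further GR site of both lines lay 1.3 kb inside the upper end of SCNN1A, within 2.13 kb of the strongest one, and had no SUMO-2/3. It was chr12:6485031-6486375 in the wt and chr12:6485061-6485988 in the 3KR line. GR tags were 103 and 316 in the wt and 164 and 239 in the 3KR libraries, and wt library 2 was the highest of the 4. The wt duplicates differed 3.07-fold in tags here, against 2.03-fold at the strongest site, and 2.45-fold per kb of own peak, the widest such gap among the wt GR sites of the windows. Fold was 10.54 and 18.68 in the wt and 20.93 and 26.71 in the 3KR line. The summits of wt library 1 and 3KR library 1 were 34 bp apart.

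The other 3 loci around SCNN1A were GR sites of the 3KR line only, none with SUMO-2/3. The best ranked, chr12:6451027-6452173, lay 4.4 kb below the lower end of the gene, on the side of TNFRSF1A, which encodes a receptor for tumour necrosis factor. It had 192 and 249 tags and fold 21.50 and 17.11, at percentile 36.0 of the 3KR list, and 7.52% of the 3KR-only GR sites ranked better. On the same side chr12:6375987-6377011 had 126 and 188 tags and fold 12.70 and 16.67. On the side of LTBR, the lymphotoxin beta receptor gene, chr12:6545089-6545787 had 145 and 122 tags and fold 16.20 and 10.98. They stood at percentiles 56.5 and 66.2. Whether the wt line had weaker signal at these 3 positions was not analysed here.

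**Figure D3:**
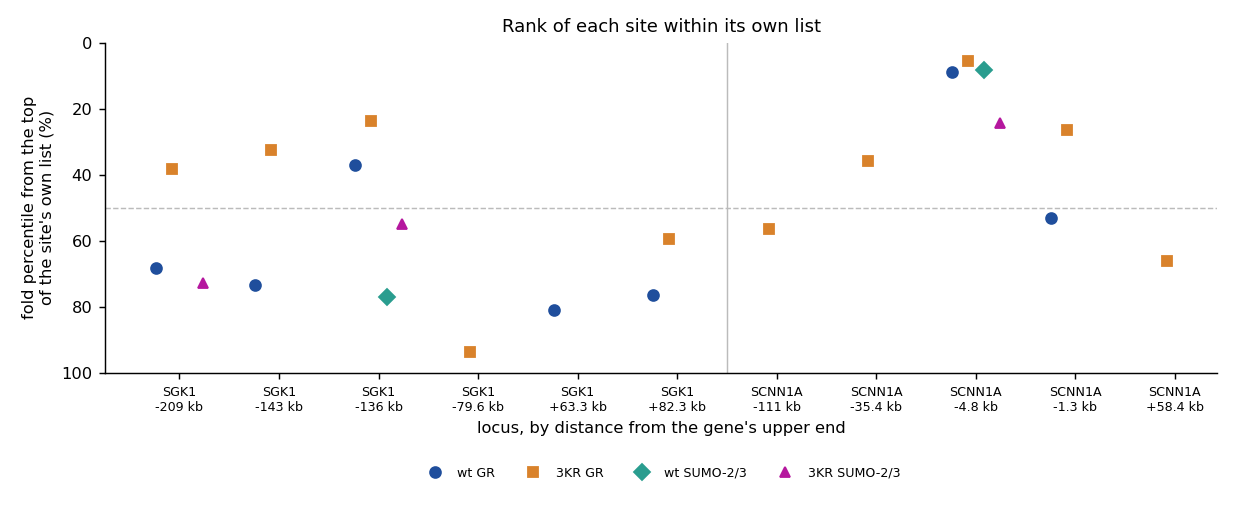
Rank of each site within its own list, as a percentile from the top by mean fold rank (0 at the top is strongest, dashed line at 50), for the wt GR, 3KR GR, wt SUMO-2/3 and 3KR SUMO-2/3 lists. The SCNN1A site at -4.8 kb stands within the top 25% of all 4 lists, and the 3KR-only SGK1 site at -79.6 kb ranks lowest at 93.8; lists differ in length, so percentiles of different lists do not measure a change.

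The sharing of sites between lines was read against the whole lists. Of the 7 wt GR sites in the windows, 6 overlapped a 3KR site, against 88.9% of all wt GR sites. Of the 10 3KR GR sites, 6 overlapped a wt site, against 53.0% of all 3KR GR sites. The counts in the windows are thus near those of the lists. Sharing depends on rank in these lists: 97.1% of 3KR sites in the top quintile by fold had a wt counterpart, 79.0% in quintile 2, and 13.2% in quintile 5. The 3KR-only site beside TNFRSF1A was in quintile 2 and the one inside SGK1 in quintile 5. The wt-only site was in quintile 5 of the wt list, where 73.3% of sites had a 3KR counterpart.

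SUMO-2/3 lay at 2 of the 7 wt GR sites and 3 of the 10 3KR GR sites in the windows. Over the whole lists these shares were 37.4% and 15.6%. The 2 wt and 3 3KR SUMO-2/3 sites of the windows all overlapped a GR site of their line, whereas 34.3% of all wt and 37.6% of all 3KR SUMO-2/3 sites did. In the top quintile of wt GR sites, that of the strongest SCNN1A site, 86.1% carried SUMO-2/3, and in the top quintile of the 3KR list 47.1% did. The strongest SGK1 site was in quintile 2 of both GR lists, where the shares were 48.2% and 14.4%. The lower flank site of SGK1 was in quintile 2 of the 3KR GR list as well. Both wt SUMO-2/3 sites overlapped a 3KR SUMO-2/3 site, as did 47.7% of the wt list, and 2 of the 3 3KR SUMO-2/3 sites a wt one, as did 74.7% of the 3KR list.

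By class, the 6 GR sites of the windows shared between the lines had SUMO-2/3 in both lines in 2 cases, in the 3KR line alone in 1, in the wt line alone in 0 and in neither line in 3. Over all shared wt GR sites these classes made up 20.1%, 4.96%, 20.1% and 54.9%. Of the 4 GR sites found in the 3KR line alone, 0 had a SUMO-2/3 site of that line, against 5.11% of all such sites. The 1 wt-only GR site had none in the wt line, where 15.3% of such sites had it. With so few sites, no difference from the lists was tested.

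The control-line list had 0 sites in the windows, against GR sites of both other lines. Over the lists, 7.49% of wt and 4.79% of 3KR GR sites had a control-line counterpart, and 0 of 7 and 0 of 10 sites are not far from these shares. In the top quintile of wt GR sites the share was 16.8%. The nearest control-line sites were 257 kb from the SGK1 window, with 113 tags, and 4285 kb from the SCNN1A window. The control line had 1 library of 1016 sites, whose weakest site held 69 tags, and weaker binding of endogenous GR than the list admits was not detectable.

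At the 6 GR sites of the windows listed in both lines, the tag ratios between lines were close to the median ratio of all shared sites. Each site's log2 ratio of wt over 3KR tags was computed for all 4 combinations of a wt and a 3KR library, and each combination was centred on the median of the 9763 GR sites that matched one to one. The uncentred median over those sites was -0.35. Over the 6 shared GR sites of the windows the median of the centred ratio was 0.02, with single sites between -0.21 and 0.21, all within the middle 50 percent of all shared sites (-0.31 to 0.35). Without centring all 6 ratios were below 0. An exact permutation test of 2 libraries against 2 cannot give a two-sided p below 0.333, so none was made.

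Among the SGK1 sites, the centred GR ratio was -0.05 at the strongest one, with a range over the pairs of -0.08 to -0.01. It was -0.16 (-0.21 to -0.11) at the lower flank site and 0.20 (0.17 to 0.23) at the upper flank site. All 4 pairs had the same sign at each of these, but over all shared sites 27.6% were below 0 and 27.6% above 0 in all pairs, so this is a common result. Per kb of own peak the pairs at the strongest site crossed 0 (-0.26 to 0.15), and the upper flank ratio was 0.09. At the site 7.15 kb from the lower end the pairs ran from -1.60 to 1.19 around a mean of -0.21. Per kb of own peak, which differed there in length, all 4 pairs lay below 0, from -0.55 to -0.0086. On chromosome 6 as a whole the median centred GR ratio was -0.34 over 513 sites, and the 4 SGK1 sites all lay above it. Relative to that median, the upper flank site had the highest ratio of the 4, 0.55. The strongest site had 0.30 and the lower flank site 0.19, so their sign turned.

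At the SCNN1A sites the 4 pairs of libraries crossed 0 for GR. The centred GR ratio was 0.09 (-0.13 to 0.33) at the strongest site and 0.21 (-0.57 to 1.00) at the one nearer the upper end. The median of chromosome 12 was -0.10 over 412 sites. Both values were below 0 per kb of own peak, at -0.05 and -0.35, and without centring, at -0.25 and -0.13.

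SUMO-2/3 tags went in different directions at the 2 sites listed in both lines. Centred on 5651 matched SUMO-2/3 sites, the log2 ratio of wt over 3KR was -0.50 (-0.61 to -0.38) at the SGK1 site and 0.16 (0.04 to 0.26) at the SCNN1A site. All 4 pairs were below 0 at the former, as at 27.7% of all shared SUMO-2/3 sites, and above 0 at the latter, as at 28.0%. Per kb of own peak the ratios were -0.33 and 0.32, and without centring -0.13 and 0.53. The SGK1 value stood at percentile 13.6 and the SCNN1A value at 63.2 of all matched sites. However, the chromosome 6 median for SUMO-2/3 was itself -0.51 over 323 sites, so the SGK1 site was at the level of its chromosome (0.0046 relative to it). The SCNN1A site was 0.25 above the chromosome 12 median of -0.10. The tag ratios leaned to the 3KR line on chromosome 6 for both antibodies. The part of this lean in the 3KR-only SUMO-2/3 site of the lower SGK1 flank was not tested.

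**Figure D4:**
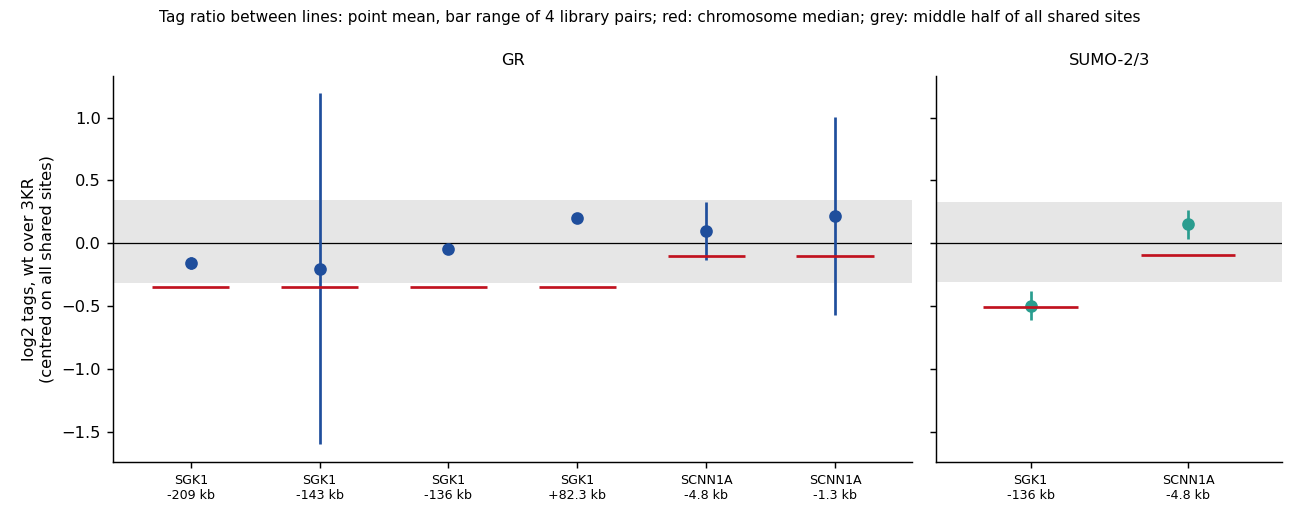
Log2 ratio of tags, wt over 3KR, at the 6 GR and 2 SUMO-2/3 sites of the windows listed in both lines, centred on all shared sites; points are means and bars the range over 4 pairs of libraries, red lines the chromosome median, and grey the middle 50 percent of shared sites. GR means lie between -0.21 and 0.21, and the SUMO-2/3 site of SGK1 lies at -0.50 on the line of its chromosome.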

How the data were processed

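GR and SUMO-2/3 ChIP-seq peak lists of 9 of the 11 samples were analysed, and the control-line input and IgG samples were not used. Groups follow the sample titles. The submitters' processing notes name CASAVA, Bowtie 0.12.9 and the hg19 build. How peaks were called, and against which control, is not given in the sources used here. The authors deposited, per the file headers, whole tag counts in each library's own peak, not normalized, a fold enrichment (ratio to the caller's background), an FDR in percent, and a p column that repeats the ceiling 3100 and was taken as a score and not used. Own peak length and summit offset are in bp.

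Both libraries of a duplicate group list identical positions, and no own peak was narrower than its site, so a site was read as the stretch common to both libraries, which no header states. Summed over listed peaks, duplicate libraries held 1127839 to 4696781 tags and the control-line library 208776; total depth is unknown. The number of tags limits precision, and nothing beyond "biological duplicates" describes how the duplicates arose.

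Overlap needed 1 bp. Percentiles rank the mean fold rank of both libraries. A summit was placed as start plus offset where own length equalled site width, and otherwise bounded by that length. Tag ratios were centred for each pair of libraries. No count model was fitted, because each library was counted in its own peaks. The planned counts at other sodium transport genes, and motif searches within the sites, needed an hg19 annotation and sequence, which were not used here; promoters were searched instead, a choice made after the tables were seen. Every locus in the windows is given with the tags and fold of its listed libraries, by the naming rule. Coordinates and percentiles are given for some of the lists only. The members and lists were chosen with earlier results of these data known. Code was written in Python 3.11.15 (pandas 2.3.3, numpy 2.4.6) and tested on simulated data.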

Additional observations from a re-analysis of the deposited data

How the results depend on the processing

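Site counts depended on where the limits were set, as follows from fewer sites or less sequence being admitted. With only the upper 50 percent of each list by fold, the SGK1 window kept 1 wt GR site, 3 3KR GR sites and 0 SUMO-2/3 sites in either line, and the SCNN1A window 1 wt and 3 3KR GR sites. With windows trimmed by 50 kb on each side, SGK1 had 2 wt GR, 3 3KR GR and 1 3KR SUMO-2/3 sites, and SCNN1A 3 3KR GR sites. With the upper 50 percent of both lists, 2 wt GR sites were shared with the 3KR line, and 1 GR site in each line carried SUMO-2/3. With centres within 200 bp, 1 wt GR site and 2 3KR GR sites carried SUMO-2/3. The counts with a control-line site could only be 0 under any overlap rule, because that list had 0 sites in the windows. Reciprocal overlap of 50 percent left the counts of shared GR sites and of GR sites with SUMO-2/3 unchanged.

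The median GR tag ratio of the windows was -0.32 without centring and 0.25 when centred on the same chromosome. Leaving out a library gave -0.13 to 0.22 for GR and -0.25 to -0.09 for SUMO-2/3. The median SUMO-2/3 ratio, over 2 sites of opposite sign, was -0.17, against 0.20 without centring, 0.13 when centred on the same chromosome and -0.0084 per kb of own peak. Centring on the chromosome turned the sign at the lower flank site of SGK1 (0.19), at the site 7.15 kb from the lower end (0.14), at the strongest SGK1 GR site (0.30) and at its SUMO-2/3 site (0.0046). Without centring the GR ratio changed sign at the upper flank site of SGK1 (-0.14) and at both SCNN1A sites (-0.25 and -0.13), and all 6 shared GR sites were below 0. At the SGK1 site 7.15 kb from the lower end, the ratio was 0.66 without wt library 1 and -1.08 without wt library 2. No paired analysis was possible because the results come from no test, and the labels do not say that replicate numbers are matched between lines. The mean ratio is nearly the same either way, but its range is not: between libraries of the same number the GR ratio was 0.12 and 0.07 at the strongest SCNN1A site, 0.20 and 0.23 at the one nearer the upper end, and -0.55 and 0.14 at the SGK1 site 7.15 kb from the lower end.

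Limits: 1 list per duplicate group, tags counted in peaks of unequal length, and no value for a site a list does not hold.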
